A study of Mus musculus with 13 samples.

Results

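The nuclear genes of mitochondrial complex I were compared between sorted pacemaker cells (PC) of the sinoatrial node and right atrial cardiomyocytes (RACM) of neonatal mice. Members were all genes of the count table with a protein-coding mouse symbol starting with Nduf, 48 of 55487 gene IDs. Of these, 40 are named as subunits (Ndufa, Ndufb, Ndufc, Ndufs and Ndufv) and 8 as assembly factors (Ndufaf). The rule used names only and no measured value. Another 4 Nduf symbols of the table, Ndufa11b, Ndufs6b, Ndufab1-ps and Ndufa12-ps, are annotated as pseudogenes and were left out. The member Ndufb1 was first matched under the symbol Ndufb1-ps, and its current RefSeq symbol is protein-coding. Ndufb4b, protein-coding in RefSeq, was not matched in the table.

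Both cell types were flow-sorted from dissected tissue at the border of the sinoatrial node and right atrium, with 8 to 10 hearts pooled for each biological replicate. The RNA libraries come from hearts of the genotype Hcn4-GFP/Myh6-mCherry, which carry a green reporter named for the pacemaker channel gene Hcn4 and a red one named for the cardiac myosin gene Myh6. The 3 PC and 3 RACM libraries are numbered p0, p2 and p4 in both cell types, and the labels give the stage as neonatal without saying what the number stands for. No treatment separates the groups. The ATAC-seq samples of the study were not analysed here.

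Complex I is the NADH:ubiquinone oxidoreductase of the mitochondrial inner membrane. A peripheral arm in the matrix takes electrons from NADH and passes them along a chain of iron-sulphur clusters to ubiquinone, and the membrane arm pumps protons. A small set of core subunits does this chemistry, some coded by the nucleus and the rest by mitochondrial DNA, while many accessory subunits surround them and assembly factors build the complex without staying in it. Heart muscle is rich in mitochondria and depends largely on oxidative phosphorylation for its ATP. The subunits coded by mitochondrial DNA could not be described, since all 37 genes of the mitochondrial genome have 0 counts in every library of the table.

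Total counts ranged from 14141151 to 22290996 a library. Marker genes went with the labels: 7 of 7 pacemaker markers were called higher in PC and 4 of 6 working atrial markers lower, by the edgeR quasi-likelihood test described next. The 7 include Hcn4, for which the green reporter of the sorted hearts is named, so that marker is not independent of the reporter. Summed markers of other cell types were present in both sorts. Levels are in CPM, the count of a gene scaled to the library's total after TMM adjustment. Fibroblast markers summed to 879 to 2246 CPM in PC and 1690 to 11278 CPM in RACM, and macrophage and leukocyte markers to 9.56 to 39.5 CPM and 157 to 646 CPM, in each case highest in RACM p4. Of these lists, 2 of 9 fibroblast and 7 of 9 macrophage and leukocyte markers were called lower in PC, and none of their markers was at 0 in all libraries.

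Most complex I genes stood higher in pacemaker cells, each by a modest factor, and few passed the test singly. All 48 members passed the filter on low counts. Of them 47 had a log2 fold change (PC minus RACM) above 0, where 50.5% of all 18015 genes tested did, and their median was 0.66 against 0.01 over all genes tested. At an adjusted p under 0.05 (edgeR quasi-likelihood test, Benjamini-Hochberg adjustment over all genes tested), 5 members rose: Ndufb8, Ndufa4, Ndufs5, Ndufa13 and Ndufc1. Over all genes tested 3.69% rose, against 10.4% of the members. Ndufa4l2 was the only member that fell, where 3.57% of all genes tested fell. In both directions together 12.5% of the members and 7.27% of all genes tested were called. At an unadjusted p under 0.05 stood 37 of the 48 members, and 21.1% of all genes tested.

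The call of single members depended on how the p number was treated. Across the genes tested, PC and RACM libraries of the same number deviated together weakly from their group means (r from 0.156 to 0.237). The number therefore also entered a second model as a replicate block. With the block 21 members rose and Ndufa4l2 fell, where 5.96% of all genes tested rose and 5.6% fell in that model, and all 6 unblocked calls were among them. DESeq2 found 19 members higher (6.21% of all genes tested) and limma-voom 7 (3.45%), while without both p4 libraries none was called in either direction (4.07% of all genes tested). The count of 6 also rested on single libraries, and the calls over all genes tested moved too. It became 0 without PC p0 (2.95% of all genes tested called in that fit), without PC p4 (4.87%), without RACM p2 (2.71%) and without RACM p4 (3.85%). It was 2 without PC p2 (Ndufb8 and Ndufa4, 3.95%) and 21 without RACM p0 (6.88%).

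**Figure D1:**
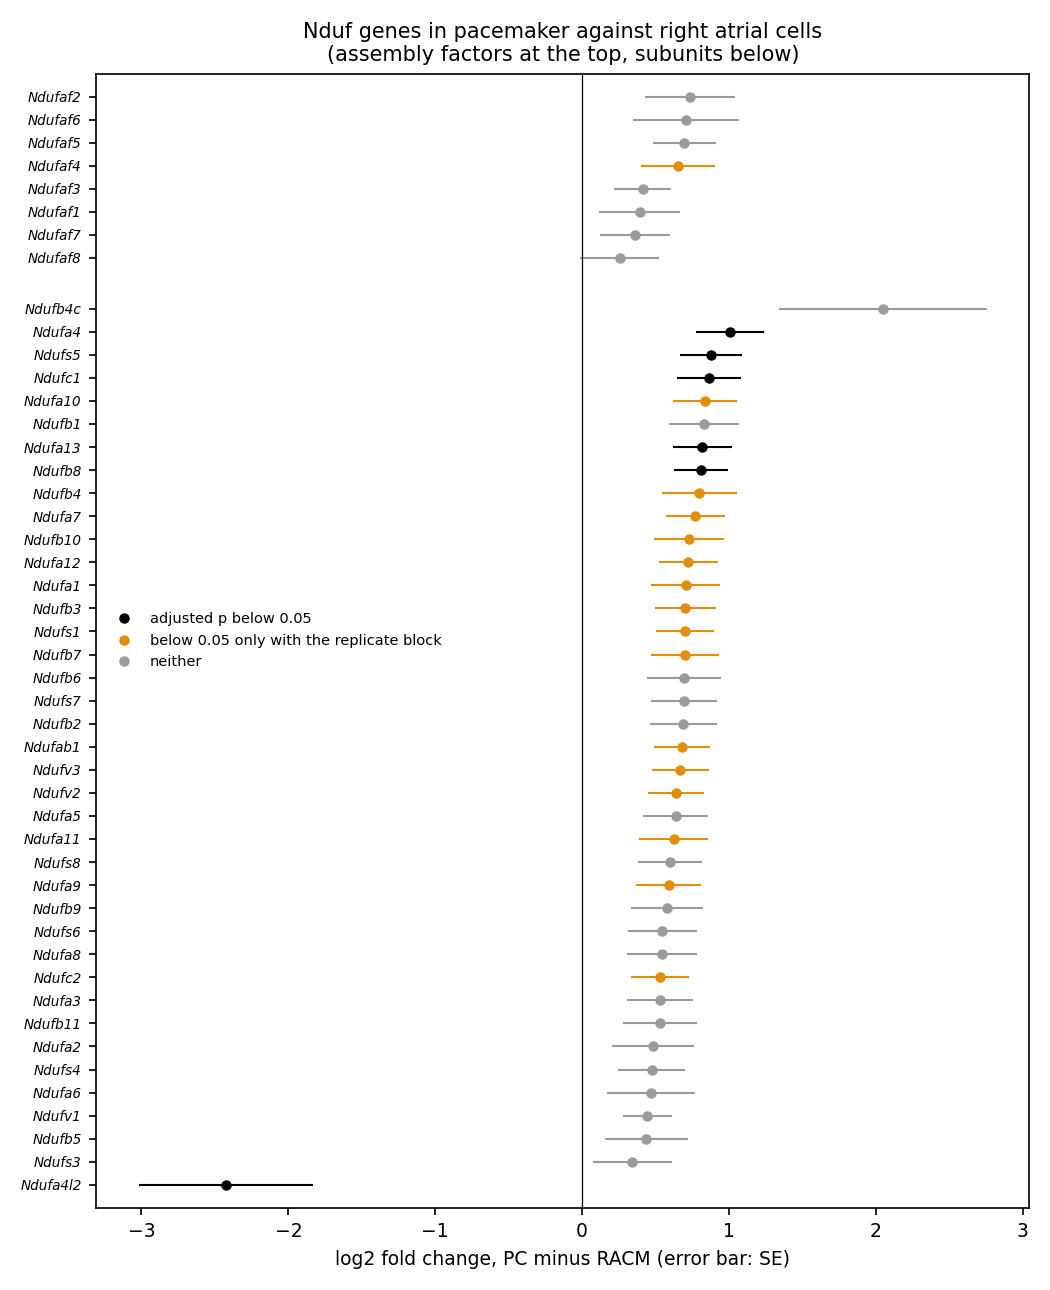
Log2 fold change of PC over RACM with its standard error (edgeR) for 47 of the 48 members, subunits and assembly factors apart; black marks members called in the unblocked fit, orange those called only with the replicate block, and grey the others. Apart from Ndufa4l2, at -2.43, each plotted member sits to the right of 0.

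Summed over the members, PC held 9058 CPM at p0, 7607 at p2 and 10803 at p4, while RACM held 7287, 4854 and 5264 in that order. Every PC library stood above every RACM library, though PC p2 exceeded RACM p0 by little. The ratio of PC to RACM was 1.24 at p0, 1.57 at p2 and 2.05 at p4. Of the 48 members, 28 (58.3%) had every PC library above every RACM library, where 13.5% of all genes tested did. Groups overlapped in 19 members, and Ndufa4l2 had every PC library below every RACM library. The RACM p0 library was the highest of its group in 45 members and exceeded the lowest PC library in 20. PC p4 was the highest PC library in 37 members and PC p2 the lowest in 39.

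Summed markers of cardiomyocytes were also higher in PC. The 8 markers summed to 75285, 63283 and 67026 CPM in PC against 59809, 47894 and 38574 CPM in RACM, in the same order of numbers. None of the 8 rose, and Nkx2-5, a cardiac transcription factor, fell (edgeR adjusted p = 0.025). Per 100 CPM of cardiomyocyte markers, a measure chosen after the values were seen, the members held 12.03, 12.02 and 16.1 CPM in PC against 12.2, 10.1 and 13.6 CPM in RACM. On that scale the groups overlapped, and the ratio of PC to RACM was 0.987 at p0, 1.19 at p2 and 1.18 at p4. The 8 markers did not move alike, so the scale depends on which are summed. Their log2 fold changes were 0.87 for Actc1, 0.79 for Tnnt2, 0.50 for Myl7 and 0.37 for Tnni3. The others stood at 0.29 for Actn2, 0.04 for Myh6, 0.03 for Ryr2 and -1.44 for Nkx2-5. In bulk libraries, fewer cells of a type and less RNA per cell cannot be told apart. The part of cell mixture in the differences of the members was not tested.

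**Figure D2:**
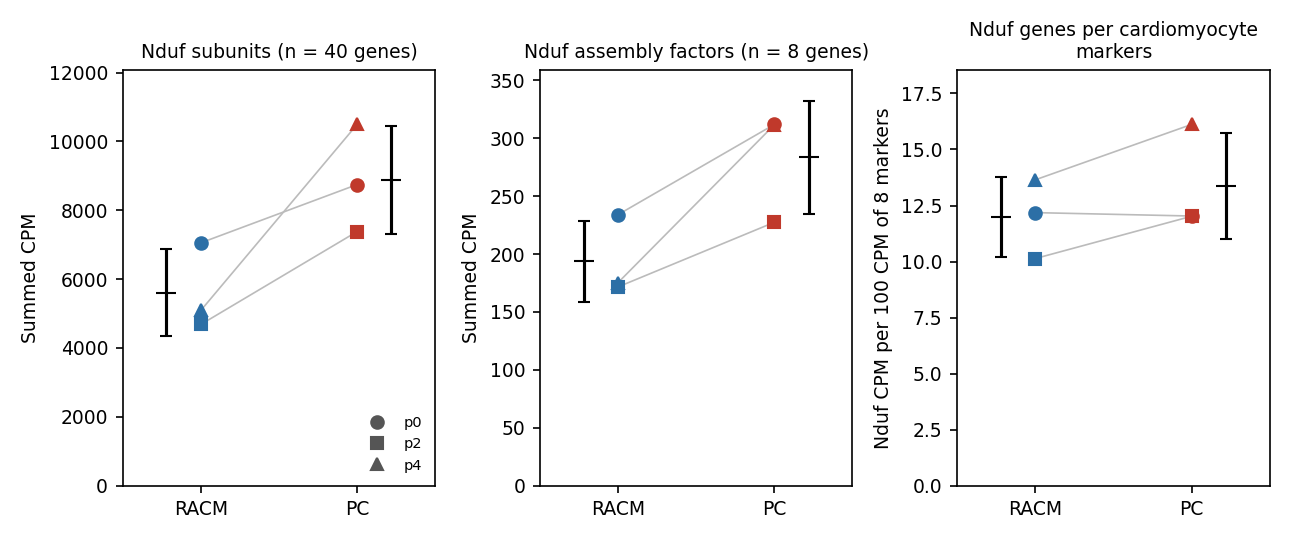
Summed CPM of the 40 subunits (left) and 8 assembly factors (middle), and CPM of all members per 100 CPM of 8 cardiomyocyte markers (right), one point a library, with grey lines joining libraries of the same p number and black bars for mean and SD (n = 3); each vertical axis starts at 0. In the left and middle panels every line goes up from RACM to PC, while on the right the p0 libraries are at 12.2 in RACM and 12.03 in PC.

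Core subunits came to a median log2 fold change of 0.60, and none of the 7 rose in the unblocked fit, while Ndufs1 and Ndufv2 rose with the block. The NADH-oxidising end holds Ndufv1, Ndufv2 and Ndufs1. Ndufs1, the largest subunit and carrier of several iron-sulphur clusters, stood at 543, 419.6 and 498 CPM in the PC libraries (p0, p2, p4, as in each sentence of this kind) against 379, 261 and 261 CPM in RACM. Its groups did not overlap, and its log2 fold change was 0.70 ± 0.20 (SE, n = 3 per cell type), with an adjusted p of 0.0691 by the edgeR quasi-likelihood test and 0.0126 with the block. Ndufv2, an iron-sulphur subunit next to the NADH site, had 243, 208 and 240.1 CPM in PC, against 188, 123 and 133 CPM in RACM, again without overlap (log2 fold change 0.64 ± 0.19). Its edgeR adjusted p was 0.0859, and 0.023 with the block. Ndufv1, which binds NADH and flavin mononucleotide, had 411, 372 and 441 CPM in PC, against 346, 289 and 264 CPM in RACM. Its groups lay closer without touching, and neither fit called it.

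The other core subunits lead electrons to ubiquinone, and neither the unblocked fit nor the block called those described here. Ndufs7, carrier of the last iron-sulphur cluster before ubiquinone, had 251, 234 and 343 CPM in PC, against 222, 142 and 149 CPM in RACM, without overlap. Its edgeR adjusted p was 0.108, and 0.0546 with the block. Ndufs8, another iron-sulphur subunit, had 175, 151 and 227 CPM in PC, against 149.9, 96.1 and 119 CPM in RACM, with PC p2 barely above RACM p0. Ndufs3, a subunit without iron-sulphur clusters, had 172, 127 and 208 CPM in PC, against 188, 105 and 107 CPM in RACM. With RACM p0 above both PC p0 and PC p2, Ndufs3 had the smallest log2 fold change of the subunits above 0, at 0.34 ± 0.27.

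Among the accessory subunits, 4 rose, with Ndufa4 described apart. Ndufb8, a membrane-arm subunit often used in immunoblots as a gauge of assembled complex I (ENSMUSG00000025204, mm10 chromosome 19 from 44548572 to 44555440, minus strand), had 158, 144 and 215 CPM in PC, against 99.2, 91.6 and 104 CPM in RACM. The lowest PC library lay well above the highest RACM library, and the log2 fold change was 0.81 ± 0.18 (edgeR adjusted p = 0.0318, and 0.0113 with the block). Ndufs5, an accessory subunit of the membrane arm (chromosome 4 from 123712710 to 123718202, minus strand), had 134, 118 and 162 CPM in PC, against 94.8, 58.8 and 71.7 CPM in RACM. Its groups did not overlap, and its rise (log2 fold change 0.88 ± 0.21, edgeR adjusted p = 0.0396) was the largest among the subunits apart from Ndufa4 and Ndufb4c.

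Ndufa13, also known as GRIM-19 and needed to join the arms of the complex (chromosome 8 from 69894180 to 69902558, minus strand), had 349, 348 and 526 CPM in PC, against 215, 221 and 258 CPM in RACM. PC p4 stood apart above the others and the groups did not overlap (log2 fold change 0.82 ± 0.20, edgeR adjusted p = 0.0419). Of its exon bases 29.98% are shared with Tssk6, and the counting used no strand to assign such reads. Ndufc1, a small membrane-arm subunit (chromosome 3 from 51404677 to 51408988, minus strand), had 143, 141 and 204 CPM in PC, against 109.8, 71.3 and 87.4 CPM in RACM. Its groups did not overlap and its log2 fold change was 0.86 ± 0.22 (edgeR adjusted p = 0.0454).

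Each of the 6 calls was lost in some fits that left out a library. Ndufa4 lost its call in 4 of the 6 such fits, Ndufa13 in 6, and the other 4 genes in 5 each. The direction stayed the same in each of these fits.

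Of the other accessory subunits, Ndufa10 and Ndufa7 came closest to the threshold. Ndufa10, which resembles a nucleoside kinase in fold, had 472, 370.2 and 533 CPM in PC, against 328, 207 and 235 CPM in RACM. Ndufa7, a peripheral-arm subunit, had 142, 143 and 188 CPM in PC, against 115, 76.8 and 85.8 CPM in RACM. Neither overlapped between groups, their edgeR adjusted p-values were 0.0512 and 0.0513, and with the block they were 0.0114 and 0.0286. Both also passed by limma-voom and DESeq2.

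Further Ndufa genes passed only in some fits. Ndufa12, a paralog of the assembly factor Ndufaf2 that takes its place in the finished complex, had 87.6, 76.6 and 88.9 CPM in PC, against 64.5, 39.3 and 49.6 CPM in RACM, without overlap. Ndufab1, the mitochondrial acyl carrier protein, had 108, 89.1 and 124 CPM in PC, against 80.2, 58.9 and 61.2 CPM in RACM, also without overlap. Both rose with the block, at edgeR adjusted p-values of 0.0227 and 0.0315. Ndufa1, a membrane-arm subunit coded on the X chromosome, had 135, 121 and 166 CPM in PC, against 118, 67.4 and 74.6 CPM in RACM, with PC p2 just above RACM p0. Ndufa9, which holds a nucleotide in a Rossmann fold, had 369.8, 258 and 326 CPM in PC, against 277, 181 and 177 CPM in RACM, with RACM p0 above PC p2. Ndufa11, a membrane-arm subunit, had 329.9, 282 and 484 CPM in PC, against 279, 186 and 247 CPM in RACM, with PC p2 barely above RACM p0. These 3 rose with the block (edgeR adjusted p = 0.0468, 0.028 and 0.0464). Ndufa5, a peripheral-arm subunit, had 133, 128 and 170.3 CPM in PC, against 122, 73.1 and 82.8 CPM in RACM, and passed only without RACM p0.

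The Ndufb genes code for membrane-arm subunits and had a median log2 fold change of 0.70 over 12 genes. Ndufb3 had 104, 92.4 and 122 CPM in PC, against 84.1, 52.9 and 58.7 CPM in RACM. Ndufb4 had 76.5, 69.7 and 126 CPM in PC, against 61.9, 42.0 and 53.1 CPM in RACM. Ndufb7 had 146, 139.9 and 236 CPM in PC, against 119, 88.7 and 114 CPM in RACM. These 3 did not overlap between groups and rose with the block (edgeR adjusted p = 0.0341, 0.0443 and 0.0391). Ndufb10 had 304, 251 and 359.8 CPM in PC, against 247, 137 and 168 CPM in RACM, with PC p2 just above RACM p0, and it too rose with the block (edgeR adjusted p = 0.0275). Ndufb1 had 67.6, 72.9 and 109 CPM in PC, against 59.0, 38.9 and 42.1 CPM in RACM, without overlap. It passed with no filter on low counts, by DESeq2 and without RACM p0. Of its exon bases 12.75% are shared with Cpsf2.

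Ndufb5, Ndufb6 and Ndufb9 passed only in the fit without RACM p0. Ndufb5 had 259, 196 and 235 CPM in PC, against 257, 127 and 125 CPM in RACM, so RACM p0 lay among the PC libraries while the other 2 RACM libraries lay lower. Ndufb6 had 67.6, 68.9 and 85.8 CPM in PC, against 62.6, 31.0 and 44.0 CPM in RACM, with the same contrast between RACM libraries. Ndufb9 had 363, 268 and 382 CPM in PC, against 313, 179.7 and 187 CPM in RACM, where RACM p0 exceeded PC p2. In Ndufb5, Ndufb6 and Ndufb9, 12.3%, 39.0% and 19.5% of exon bases are shared with another gene.

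Ndufv3, a small subunit at the NADH-oxidising end, had 194, 194 and 264 CPM in PC, against 163, 114 and 133 CPM in RACM. Its groups did not overlap, and it rose with the block (edgeR adjusted p = 0.0375). Ndufc2, the partner of Ndufc1 in the membrane arm, had 269, 238 and 255 CPM in PC, against 227, 141 and 159 CPM in RACM. Its groups did not overlap either, and it rose with the block (edgeR adjusted p = 0.0429). The other 8 subunits (Ndufa2, Ndufa3, Ndufa6, Ndufa8, Ndufb2, Ndufb11, Ndufs4 and Ndufs6) passed in no fit, with log2 fold changes from 0.47 to 0.69.

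Ndufb4c stood apart by 1 library. It had 4.13, 25.6 and 4.72 CPM in PC, against 3.66, 2.21 and 2.45 CPM in RACM, and the high value of PC p2 gave most of its log2 fold change of 2.05 ± 0.71. The edgeR test did not call it (adjusted p = 0.126, and 0.196 with the block), while DESeq2 and the fit with no filter did. Its exon length of 390 bases is the shortest of the members, and how reads were split between it and Ndufb4, whose name it shares, is uncertain.

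Ndufa4 and Ndufa4l2 carry complex I names, but Ndufa4 is now known as a subunit of cytochrome c oxidase, and Ndufa4l2 is its paralog, known as a hypoxia-induced gene. They went in opposite directions. Ndufa4 (ENSMUSG00000029632, chromosome 6 from 11900292 to 11907497, minus strand) had 704, 576 and 990.2 CPM in PC, against 428, 305 and 396 CPM in RACM. Its groups did not overlap, and it was 2.01-fold higher in PC (log2 fold change 1.01 ± 0.23, edgeR adjusted p = 0.033, and 0.00571 with the block). Ndufa4l2 (ENSMUSG00000040280, chromosome 10 from 127514967 to 127517154, plus strand) had 0.948, 0.961 and 1.61 CPM in PC, against 2.90, 5.26 and 10.8 CPM in RACM. Every RACM library was higher, with RACM p4 the highest, and the log2 fold change was -2.43 ± 0.59 (edgeR adjusted p = 0.0421). By limma-voom Ndufa4l2 did not pass (adjusted p = 0.085).

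On the scale of RPKM, which divides CPM by the kilobases of exon, Ndufa4 stood above Ndufa4l2 by a factor of 589, 475 and 489 in PC. In RACM the factor was 117, 45.9 and 29.0, lower in every library. The fibroblast and the macrophage and leukocyte marker sums had the same order of RACM libraries as Ndufa4l2, lowest in p0 and highest in p4. So did the endothelial sum, at 95.8, 103 and 158 CPM in RACM, while the erythroid and the neuron and Schwann cell sums did not. Pericyte markers were mixed. Pdgfrb, a growth factor receptor of pericytes, had 7.97, 1.64 and 6.47 CPM in PC, against 19.8, 49.4 and 73.1 CPM in RACM. Rgs5, a signalling regulator of pericytes, had 31.8, 11.1 and 30.8 CPM in PC, against 40.2, 65.7 and 185 CPM in RACM. Both were highest in RACM p4, as Ndufa4l2 was, and Pdgfrb fell (edgeR adjusted p = 0.0171). Kcnj8, a potassium channel gene of pericytes, had 1.06, 0 and 0 CPM in PC, against 6.91, 3.29 and 2.74 CPM in RACM, highest in RACM p0. Cspg4, a proteoglycan gene of pericytes, was higher in PC, at 44.5, 34.8 and 32.8 CPM against 19.8, 11.7 and 15.1 CPM (edgeR adjusted p = 0.0171). The summed list of 8 smooth muscle and pericyte markers also had the order of Ndufa4l2 in RACM, at 202, 268 and 601 CPM. Unlike Ndufa4l2, this sum was higher in PC at each number, at 664, 424 and 701 CPM. Of its markers 3 were called higher in PC and 1 lower. The part of such cells in the level of Ndufa4l2 was not tested.

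**Figure D3:**
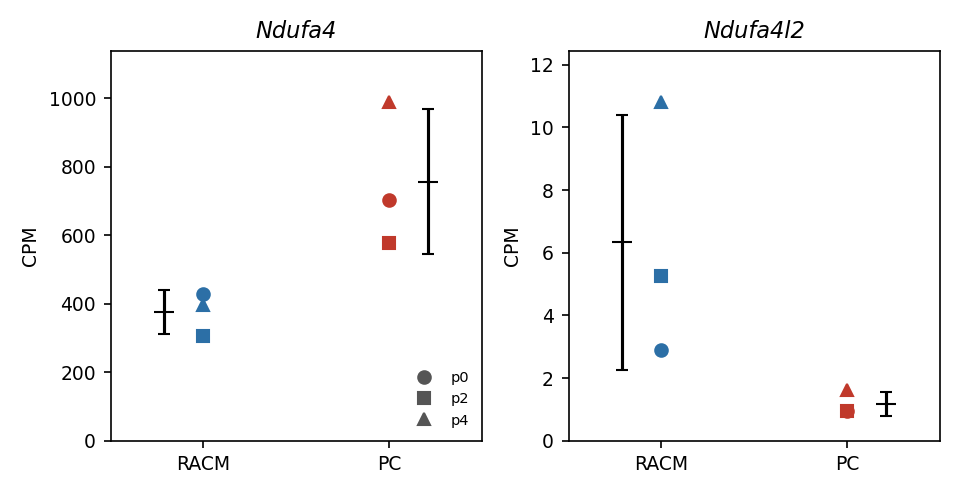
Level of Ndufa4 and of Ndufa4l2 in CPM on linear axes from 0, one point a library by p number, with mean and SD (n = 3) beside the points of each cell type. The 3 PC points of Ndufa4 lie above its RACM points, and the order is the opposite for Ndufa4l2.

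Assembly factors were also higher in PC on average, but none was called by the edgeR test. Their median log2 fold change was 0.53, with single values from 0.26 to 0.74, and 3 of 8 had an unadjusted p under 0.05, where 21.1% of all genes tested did. Ndufaf5, which hydroxylates an arginine of Ndufs7, had 46.3, 38.0 and 51.4 CPM in PC, against 34.3, 26.9 and 22.6 CPM in RACM. It was the only assembly factor without overlap between groups, with a log2 difference of 0.70 ± 0.21 (by edgeR, adjusted p = 0.0931, and 0.0631 with the block), and DESeq2 called it (adjusted p = 0.0449). Ndufaf4, which acts with Ndufaf3 on early parts of the ubiquinone end, had 109, 57.9 and 95.9 CPM in PC, against 68.1, 46.4 and 52.4 CPM in RACM. RACM p0 stood above PC p2, and Ndufaf4 rose with the block (edgeR adjusted p = 0.0427).

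Ndufaf2, the paralog that Ndufa12 replaces, had 20.0, 32.2 and 36.9 CPM in PC, against 23.2, 12.1 and 18.2 CPM in RACM. At p0 the RACM library was the higher, and 65.7% of its exon bases are shared with B230220B15Rik, so its level is uncertain. Ndufaf6, related in sequence to phytoene synthases, had the lowest RPKM of all members in RACM, at 5.34 ± 0.859 (SD, n = 3). Its libraries had 9.87, 7.13 and 15.2 CPM in PC, against 7.81, 6.16 and 5.82 CPM in RACM, with RACM p0 above PC p2. The other 4 were Ndufaf1 of the membrane-arm assembly complex, Ndufaf3, Ndufaf7, a protein methyltransferase, and Ndufaf8, a partner of Ndufaf5. Their log2 fold changes were between 0.26 and 0.41, and their groups overlapped.

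Subunits and assembly factors differed little in fold change. The medians of 0.67 and 0.53 were 0.14 apart, less than the spread of that difference over the p numbers (SD 0.249, n = 3). By number, the median log2 ratio was 0.25, 0.66 and 1.03 over subunits at p0, p2 and p4, while assembly factors gave 0.35, 0.27 and 0.89. The subunits had the lower ratio at p0 and the higher at p2 and p4.

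**Figure D4:**
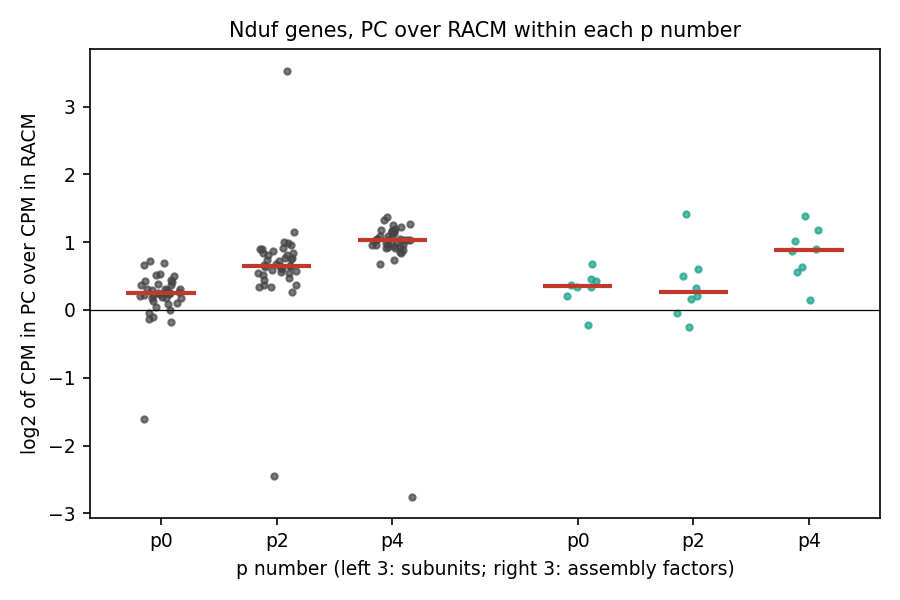
Log2 ratio of CPM in PC to CPM in RACM within each p number, one point a member, subunits on the left and assembly factors on the right; red lines are medians and sideways scatter has no meaning. At p0, p2 and p4 the ratio was above 0 in 42, 45 and 47 of the 48 members, and the lowest point of each subunit column is Ndufa4l2. Over all genes tested the median log2 ratio was -0.019, 0.014 and -0.025 in that order.

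The classes did differ in level. Median RPKM, which compares genes per length, was 138 for subunits and 17.0 for assembly factors over the PC means, and 81.3 and 12.8 over the RACM means. In single libraries the subunit median exceeded the assembly factor median by a factor of 6.36, 9.25 and 9.58 in PC and of 6.60, 6.12 and 6.49 in RACM. PC p0 lay within the RACM range and the other PC libraries above it. Assembly factors held 2.88% to 3.54% of the summed CPM of all members. Of the 40 subunits, 37 in PC and 36 in RACM had a mean RPKM above that of every assembly factor.

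Ndufa4 had the highest RPKM in both cell types, at 548 ± 154 in PC and 272 ± 46.2 in RACM (SD, n = 3). Next in PC came Ndufc2, Ndufa1, Ndufa11, Ndufb11, Ndufb9 and Ndufa13, from 326 to 337 RPKM, and these neighbours did not differ beyond their spread. Ndufa4l2 was lowest in PC, at 1.07 ± 0.344 RPKM. Length here is that of all annotated exons of a gene merged, so a gene with long rare exons has too low a value: Ndufb2 had 11.1 RPKM and Ndufab1 15.5 RPKM in PC.

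**Figure D5:**
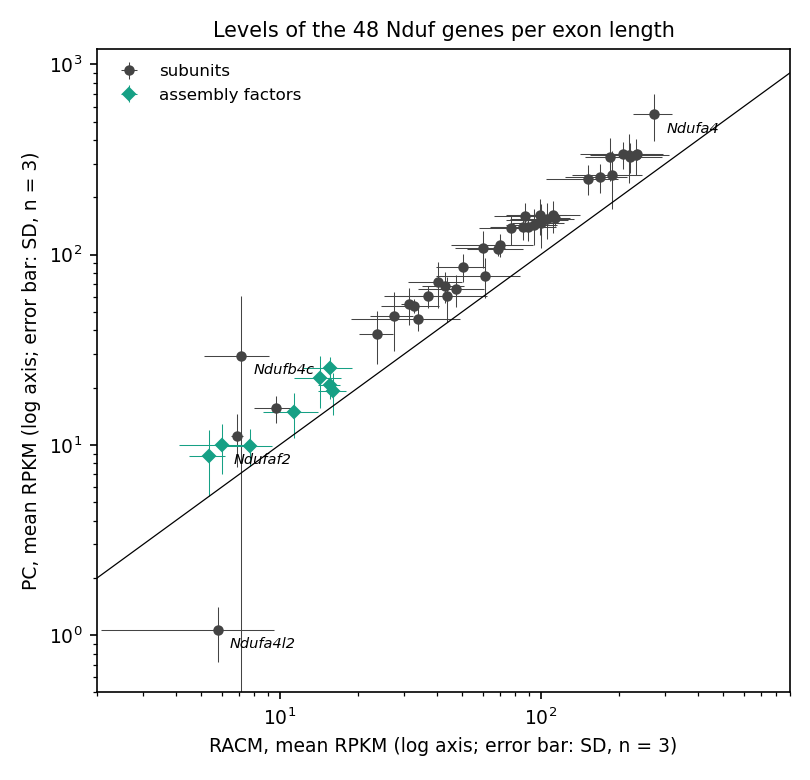
Mean RPKM of each member in PC (vertical) against RACM (horizontal) on log axes, with SD (n = 3) as bars, subunits in dark grey and assembly factors as green diamonds; on the diagonal both cell types are equal. Apart from Ndufa4l2 each member lies above the diagonal, and the lower bar of Ndufb4c runs off the axis because its SD in PC exceeds its mean.

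The members lie on 18 chromosomes, and what they share in sequence was looked for in their promoters, taken from RefSeq (GRCm38.p6) as 250 bases before to 50 after each start. Promoters of 41 of the 48 members were matched. The motif of NRF1, a regulator of nuclear genes for mitochondrial proteins, is GCGCA, any base and GCGC, and it occurred on either strand in 9 of 41 members (21.95%), where 5.19% of 27025 genes with a promoter held it. The motif AANATGGCG of YY1, another regulator of such genes, occurred in 8 members (19.5%) against 2.76% of genes. In all 8 the YY1 match nearest to the start reads in the direction of the gene. In Ndufaf8, Ndufc1, Ndufs7, Ndufa9, Ndufs6 and Ndufs4 it begins 10 to 35 bases after the start. Overlap of these matches with coding sequence was not tested. Subunits held 7 matches by gene for each motif, of 34 matched, and assembly factors 2 for NRF1 and 1 for YY1, of 7. The 30 bases around the match nearest to the start are shown for the 9 NRF1 members, so that the shared letters can be compared across genes that rose in some fit and genes that did not. Each reads 5′ to 3′ in the direction of the gene, with the match in capitals. In Ndufa6, Ndufa8 and Ndufs6 the motif lies on the opposite strand, so their capitals read GCGC, any base and TGCGC. In Ndufs5, Ndufb4 and Ndufa5 it lies on the strand of the gene, so that difference in letters is one of strand. In Ndufa11, Ndufaf4 and Ndufaf5 the capitals read the same on both strands, so the motif has no single direction there.
Ndufs5, chr4:123718265-123718294, minus strand: gctgcttgctGCGCAGGCGCagacccgctg
Ndufa11, chr17:56717692-56717721, plus strand: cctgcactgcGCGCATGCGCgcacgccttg
Ndufb4, chr16:37654371-37654400, minus strand: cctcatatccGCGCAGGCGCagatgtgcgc
Ndufaf4, chr4:24897960-24897989, plus strand: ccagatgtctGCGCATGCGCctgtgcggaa
Ndufaf5, chr2:140170652-140170681, plus strand: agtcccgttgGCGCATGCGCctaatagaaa
Ndufa5, chr6:24527697-24527726, minus strand: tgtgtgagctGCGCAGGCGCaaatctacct
Ndufa6, chr15:82354249-82354278, minus strand: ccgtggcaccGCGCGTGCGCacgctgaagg
Ndufa8, chr2:36049349-36049378, minus strand: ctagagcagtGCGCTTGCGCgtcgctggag
Ndufs6, chr13:73328479-73328508, minus strand: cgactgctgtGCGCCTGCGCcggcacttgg

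Of these genes Ndufs5 rose in the unblocked fit, Ndufa11, Ndufb4 and Ndufaf4 rose with the block, and Ndufa6, Ndufa8 and Ndufs6 passed in no fit. Ndufa5 passed only without RACM p0, and Ndufaf5 only by DESeq2. Over all members 12.5% were called in the unblocked fit and 45.8% with the block. In Ndufs5 the match begins 98 bases before the start, in Ndufa11 60 and in Ndufb4 22, where the same promoter holds 2 more. Of the 8 members with a YY1 match, Ndufaf8, Ndufb11, Ndufs4, Ndufs6 and Ndufs7 were called neither in the unblocked fit nor with the block. The sites of the other 3, which rose in the unblocked fit or with the block, are shown.
Ndufc1, chr3:51408914-51408943, minus strand: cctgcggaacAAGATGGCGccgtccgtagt
Ndufa7, chr17:33824617-33824646, plus strand: gagcggaaggAATATGGCGtccgctactcg
Ndufa9, chr6:126849096-126849125, minus strand: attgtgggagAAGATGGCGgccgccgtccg

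Other motifs were at shares nearer to those of all genes. CCGGAAGT of ETS factors occurred in 1 of 41 members (2.44%, against 4.31% of genes), GGGCGGG of SP and KLF factors in 16 (39.0% against 27.9%), CCAAT in 14 (34.1% against 41.1%) and TATAAA in 4 (9.76% against 15.7%). TCAAGGTCA, the motif of the oestrogen-related receptors (ERR), was in none of the 41, where 0.466% of genes held it. No matches of different motifs overlapped. The median GC content was 59.3% in the members' promoters and 52.7% in all promoters, and its part in these shares was not tested. A match is a description of these letters and does not show that a factor binds there.

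The genes of complexes II to V, the other complexes of the chain and the ATP synthase, gave values close to those of the Nduf genes. Of 44 tested edgeR found that 6 rose and none fell, where 3.69% of all genes tested rose. With the block 31 rose, where 5.96% of all genes tested did. The median log2 fold change was 0.70. Uqcrq, a subunit of cytochrome bc1, had 444 ± 122 CPM in PC, against 191 ± 35.9 CPM in RACM (SD, n = 3; log2 fold change 1.22 ± 0.23, edgeR adjusted p = 0.0157). Sdhd, a membrane anchor of succinate dehydrogenase, had 409.6 ± 81.7 CPM in PC, against 206 ± 37.0 CPM in RACM (log2 fold change 0.99). Leaving out RACM p2 took both past the threshold (edgeR adjusted p = 0.0751 for Uqcrq and 0.107 for Sdhd), and so did leaving out either PC p4 or PC p0 in the case of Sdhd. Their CPM sums had ratios of PC to RACM of 1.26, 1.63 and 2.02 by number, where the Nduf genes had 1.24, 1.57 and 2.05.

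Complex I assembly and related genes that carry other names, 14 in all, had a median log2 fold change of 0.46. The edgeR test called none, and 5 had an unadjusted p under 0.05 (21.1% of all genes tested did), while DESeq2 called 1, Cox7a2l (adjusted p = 0.021). Cox7a2l, which links respiratory complexes, had 345 ± 59.4 CPM in PC, against 216 ± 36.4 CPM in RACM, and Tmem70, an assembly factor of ATP synthase and complex I, had 64.8 ± 8.83 and 43.0 ± 7.55 CPM. Both rose with the block (edgeR adjusted p = 0.0113 and 0.0424). In iron-sulphur cluster synthesis neither edgeR, DESeq2 nor limma-voom called any of 13 tested genes (median log2 fold change 0.57). Of these 13, 7 had an unadjusted p under 0.05, where 21.1% of all genes tested did. Glrx5, a cluster transfer protein, and Nfu1, a late cluster carrier, had log2 fold changes of 0.60 and 0.63 (edgeR adjusted p = 0.11 and 0.113). With the block, Isca2 and Hspa9 of that list rose, where 5.96% of all genes tested rose in that model.

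Regulators of mitochondrial gene expression had a median log2 fold change of 0.14 over 18 genes. Ppargc1b, a coactivator of genes for mitochondrial proteins, stood at 52.5 ± 7.72 CPM in PC, against 25.5 ± 7.97 CPM in RACM. It was the only regulator that rose (log2 fold change 1.04 ± 0.25, edgeR adjusted p = 0.041). That call held without RACM p0 but ended when any other library, or both p4 libraries, were left out. Esrrg, an oestrogen-related receptor, had 100.2 ± 28.2 CPM in PC, against 51.4 ± 13.6 CPM in RACM (edgeR adjusted p = 0.0577, and 0.0152 with the block). In ubiquinone synthesis, which supplies the electron acceptor of complex I, edgeR called none of 13 genes (median log2 fold change 0.22). Of these 13, 3 had an unadjusted p under 0.05, where 21.1% of all genes tested did. DESeq2 called 2, Coq7 and Coq8a, and limma-voom 1, Coq7. Coq7, a hydroxylase of the pathway, differed by 0.75 ± 0.20 on the log2 scale (edgeR adjusted p = 0.0553, and 0.0234 with the block). Coq8a, a kinase-like protein of the pathway, by 1.05 ± 0.30 (edgeR adjusted p = 0.0695).

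Reads shared with other genes touch a minority of the members. In 8 of the 48 more than 10% of exon bases are shared with another gene, and the other 40 had 4 higher and 1 lower call and a median log2 fold change of 0.66. The pseudogenes Ndufab1-ps and Ndufa12-ps, where reads of Ndufab1 and Ndufa12 could also be placed, had 55.3 to 81.7 and 63.1 to 69.1 CPM in PC, and 26.4 to 56.9 and 34.1 to 59.6 CPM in RACM. Neither was called (edgeR adjusted p = 0.134 and 0.166), and how reads were split between these genes and their copies is uncertain.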

How the data were processed

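Per the file headers, the deposited values are unnormalized fragment counts, which the authors obtained for mm10 exons, grouped by gene and without strand, from featureCounts 2.0.1. The submitters' processing notes also name Trimmomatic, HISAT2 and edgeR without versions. The merged exon length in the deposited table, given per the file headers, was used only for RPKM. No normalized value was taken from the authors.

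Of 55487 gene IDs, 55141 matched a symbol. Genes passing filterByExpr (minimum count 10, minimum total count 15) were scaled by TMM and tested, 18015 in all, with edgeR 4.0.16 (glmQLFit and glmQLFTest, 2-sided, R 4.3.3). P-values were adjusted by Benjamini-Hochberg over all genes tested, with a threshold of 0.05, and the standard error was taken from the log2 fold change and the test statistic. CPM came from TMM-scaled library sizes. The biological coefficient of variation common to all genes was 0.399. With 3 libraries a cell type, each of its own p number, unblocked p-values measure a spread that holds both pool and number. No cell type has a second library of the same number, so the parts of pool and number in that spread cannot be told apart. With the block, the spread is what remains once the number is taken out.

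Values in every library are given for core subunits, called members, those of smallest p, of most negative fold change and of highest and lowest RPKM, Ndufa4, Ndufa4l2, and members whose call changed under an alternative, and in each pathway list 2 genes of smallest p are named. A member that counts in the totals is not reported singly here. Genes named outside this rule were chosen after their values were seen. The members and lists were chosen with earlier results of these data known.

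To check pairing, each library's deviation from its group mean was correlated between PC and RACM. The r across genes was 0.156 at p0, 0.234 at p2 and 0.237 at p4, and from -0.185 to -0.00147 between different numbers. Each r at the same number was above 0.1, so the numbers were taken to pair the libraries. That pairing comes from the data, not a label. No libraries were near-identical (chi-square per degree of freedom 30.2 to 77.6 between replicates). The alternatives tried were scaling by RLE or upper quartile, no filter, a filter of 5 CPM, DESeq2 1.42.0, limma-voom 3.58.1, the replicate block, each library left out, and both p4 libraries left out. The steps were also run on simulated counts that held no effect of the p number, and no result of that run is used here.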

Additional observations from a re-analysis of the deposited data

How the results depend on the processing

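No member changed direction under any alternative run. The count of Nduf genes called, 6, was 21 with no filter, 20 by DESeq2, 22 with the replicate block, 0 without both p4 libraries (an alternative chosen after seeing the data) and from 0 to 21 with a library left out. Of complexes II to V, 6 genes called became 28 with no filter, 26 by DESeq2, 31 with the replicate block, 2 without both p4 libraries (1 higher and 1 lower) and 0 to 24 with a library left out. In the complex I list outside the Nduf names, 0 became 1 with no filter, 1 by DESeq2 and 2 with the replicate block. In iron-sulphur cluster synthesis, 0 became 2 with the replicate block and 0 to 2 with a library left out. Among regulators, 1 became 2 with no filter, with the filter of 5 CPM, by DESeq2 and with the replicate block, 0 without both p4 libraries and 0 to 2 with a library left out. In ubiquinone synthesis, 0 became 2 with no filter and by DESeq2, 1 with the filter of 5 CPM, by limma-voom and with the replicate block, and 0 to 2 with a library left out. The cause of these changes was not tested. Over all genes tested, 1309 of 18015 were called in the unblocked edgeR fit, 2082 of 18015 with the replicate block and 2304 of 18015 by DESeq2. With no filter 2339 of 33066 were called, with the filter of 5 CPM 1173 of 10845 and by limma-voom 1068 of 18015. Without both p4 libraries 734 of 18037 were called, and with a library left out from 511 to 1338. The fit with no filter tested 33066 genes and moved the median log2 fold change of all genes by -0.13, and RLE and upper-quartile scaling moved it by less than 0.1. The filter of 5 CPM left out Ndufa4l2 and Ndufb4c. Across settings the median log2 fold change ran from 0.44 to 0.85 for subunits and from 0.35 to 0.72 for assembly factors. With 3 pools a cell type, 37 of the 48 members had an unadjusted p under 0.05 and 6 an adjusted one by edgeR. Ndufa4l2 has the lowest counts of the members (17 in its lowest library) and is among the least precise.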
